A study of Canis lupus familiaris with 18 samples.

Results

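The endothelial and smooth muscle cells of one vessel, the vena porta, were compared: 3 samples of canine primary endothelial cells (CaPECs) against 3 samples of vascular smooth muscle cells (VSMCs), chosen by their labels alone, out of 18 samples in all. The other 12 samples are the same cell types from the aorta and the vena cava. All cells came from the vessels of 3 healthy young adult male dogs, which had been used for pacemaker studies not related to this one, and were cultured to the third passage before poly(A) RNA was sequenced. CaPECs were released from the inner surface of the inverted vessel by enzymes and grown on gelatin in an endothelial growth medium, and VSMCs were released from the minced remainder of the vessel and grown in DMEM with fetal calf serum. No sort of the cells is described, and since each cell type had its own medium, an effect of cell type and an effect of medium cannot be told apart here.

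The vena porta carries blood from the gut and spleen to the liver. Its endothelium is the inner layer that faces the blood, forms the barrier to the tissue, and can sprout into new vessels, while smooth muscle in the wall contracts, sets the tone of the vessel, and lays down matrix. The deposited table lists genes by Ensembl identifier without symbols, and 0 of its 24580 identifiers matched the gene table at hand. Genes are therefore named by identifier, with no role given, and the labelled cell types could not be checked against their defining markers. Other cell types of the vessel wall that the cultures may have held were for the same reason not tested. The study assessed the purity of its cultures by immunostaining, which is not analysed here. In bulk RNA, fewer cells of a type and less RNA per cell cannot be told apart.

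The total count was 6169404 to 13422177 in the vena porta CaPECs and 7341227 to 12385269 in the vena porta VSMCs, and between 10809 and 11533 genes per sample reached 10 counts. Of the 24580 genes, 8992 had no count in any of the 6 samples and 11333 passed the filter on low counts and were tested. Levels are given as normalized CPM, the count scaled to library size after TMM normalization, which is not corrected for gene length.

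CaPECs and VSMCs from the vena porta differed in a large part of the transcriptome, and after TMM scaling about as many genes were higher in one cell type as in the other. At an adjusted p-value below 0.1 in edgeR's quasi-likelihood test, 3477 genes differed, which is 30.7% of the genes tested. Of these, 1690 were higher in CaPECs (14.9%) and 1787 were higher in VSMCs (15.8%). The difference exceeded 1 on the log2 scale in 1965 genes (17.3%), 979 toward CaPECs and 986 toward VSMCs, and it exceeded 2 in 401 and 497 genes. The median log2 fold change of the called genes was 1.14 in the direction of CaPECs and -1.12 in the direction of VSMCs, against 0.0131 over all genes tested. TMM scaling assumes that most genes do not differ, so the even split and the median over all genes follow in part from the scaling. The number of calls rested most on VSMC replicate 3, without which 2269 genes were called. With each of the 6 samples left out in turn, 1901 of the 3477 genes were called every time, 889 toward CaPECs and 1012 toward VSMCs, and 72 were called in none of these fits. The direction was the same in all 6 fits for 3462 genes. The others were not tested in every fit, and 0 genes changed direction in a fit that tested them.

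**Figure D1:**
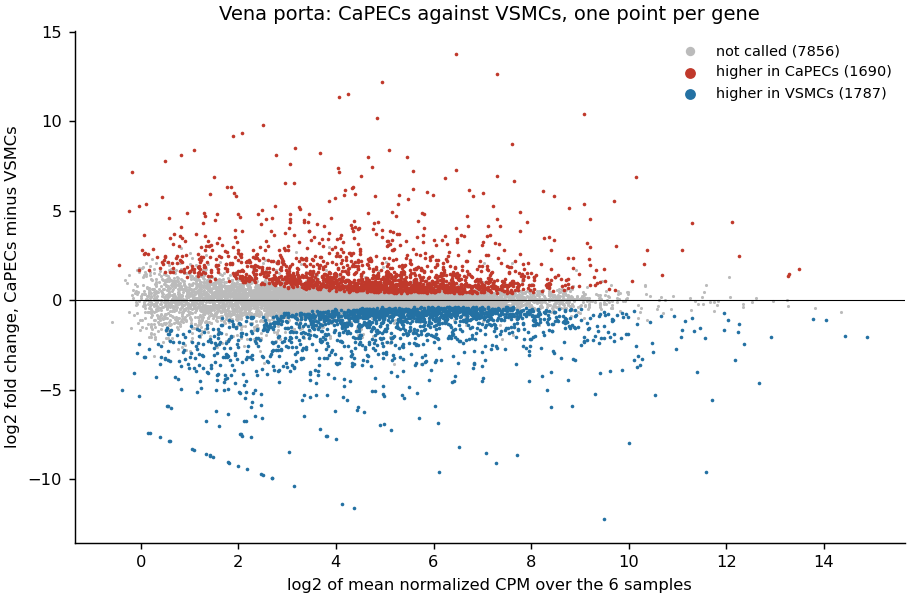
Log2 fold change between CaPECs and VSMCs of the vena porta (vertical axis, CaPECs minus VSMCs) against the log2 of the mean normalized CPM over the 6 samples (horizontal axis), one point per gene tested. The 1690 genes called higher in CaPECs and the 1787 called higher in VSMCs lie on both sides of 0 over the whole range of levels, and genes near 0 were not called.

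The samples of the cell types did not overlap in 4727 genes (41.7% of the genes tested), with all CaPECs on the higher side in 2329 (20.6%) and all VSMCs in 2398 (21.2%). Full separation of 3 against 3 samples only reaches a two-sided p of 0.1 in an exact permutation test. Some genes would thus separate without any difference between the cell types. Of the genes that were called, 108 had overlapping samples, and 1358 genes without overlap were not called. The genes that were not called are not thereby shown to be equal. Of these 7856 genes, 4457 (56.7%) had a 95% confidence interval of the log2 fold change that stayed between -1 and 1, and in the other 3399 a difference beyond 1 was not excluded by the interval. An estimate beyond 1 without a call was found for 487 genes, 383 of them below 10 normalized CPM on average, with a median standard error of 0.751.

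Above 1 normalized CPM the share of genes called rose from each class of abundance to the next, and of the called genes over 1000 normalized CPM more were higher in VSMCs. Below 1 normalized CPM, 10 of 37 genes were called (27%), a larger share than in the class above it. Between 1 and 10 normalized CPM, 21.9% of 3333 genes were called, 383 toward CaPECs and 346 toward VSMCs. Between 10 and 100 normalized CPM it was 31.9% of 6364 genes, and between 100 and 1000 it was 43.5% of 1503 genes. Above 1000 normalized CPM, 53 of 96 genes were called (55.2%), 41 higher in VSMCs and 12 higher in CaPECs. The precision differed between these classes as well, with a median standard error of the log2 fold change of 0.472 between 1 and 10 normalized CPM, 0.219 between 10 and 100, 0.2 between 100 and 1000, and 0.319 above 1000, where the share called was highest.

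**Figure D2:**
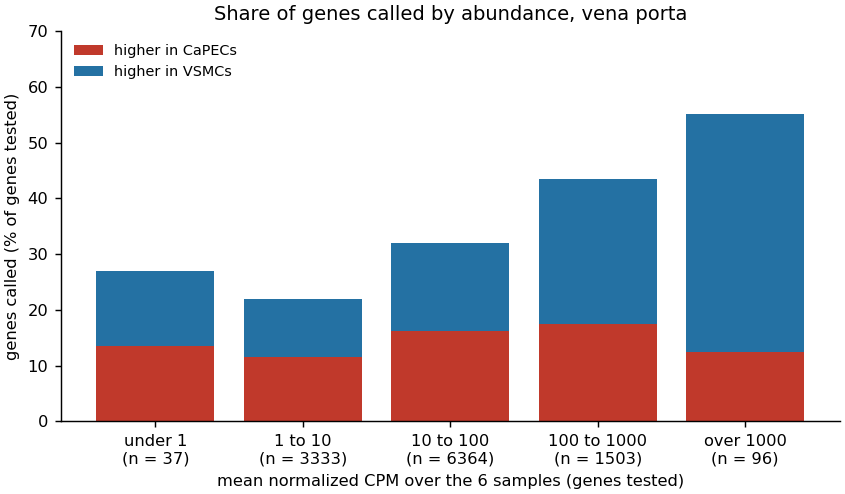
Percent of genes tested that were called between vena porta CaPECs and VSMCs (vertical axis), by mean normalized CPM over the 6 samples (horizontal axis, with the number of genes tested in each class), with genes higher in CaPECs below and genes higher in VSMCs on top. The bar of the genes over 1000 normalized CPM reaches 55.2% and is mostly made of genes higher in VSMCs.

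The libraries differed in the same way in how their counts were spread over genes. The 100 most abundant genes of each library held 36.1%, 36.5%, and 36.9% of its counts in the 3 CaPEC samples and 46.5%, 43.1%, and 43.0% in the 3 VSMC samples. All VSMC samples thus lay above all CaPEC samples, with means of 36.5% ± 0.4 and 44.2% ± 1.99 (SD, n = 3 each; exact permutation test, two-sided p = 0.1, the smallest that 3 against 3 samples allow). The lists of the 100 most abundant genes by mean normalized CPM shared 60 genes between the cell types. Of the 40 genes found only in the VSMC list, 38 were called higher in VSMCs, and of the 40 in the CaPEC list alone, 24 were called higher in CaPECs, against 15.8% and 14.9% of all genes tested. These lists were chosen by abundance in the same samples, so that membership in one list alone already reflects the level. Among the 60 shared genes, 19 were called higher in VSMCs, a larger share than the 15.8% of all genes. Higher in CaPECs were 4, a smaller share than the 14.9% of all genes. A closer background for such abundant genes is the class over 1000 normalized CPM, where 41 of 96 genes were called toward VSMCs and 12 toward CaPECs.

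In most of the large differences the transcript was also counted in the libraries of the lower cell type. Of the 401 genes called higher in CaPECs by more than 2 on the log2 scale, 264 had a mean of at least 1 normalized CPM in VSMCs, and of the 497 in the other direction, 311 had at least 1 normalized CPM in CaPECs. Whether these low levels came from other cells in the unsorted cultures was not tested. Transcripts that were close to absent on one side were few among the 11333 genes tested. In 29 genes all CaPEC samples were above 1 normalized CPM while the 3 VSMC libraries together had at most 3 counts, and in 44 genes all VSMC samples were above 1 normalized CPM while the 3 CaPEC libraries had at most 3 counts. Of the 29 genes, 11 had no count in any VSMC library and were at least 18.4-fold to at least 1680-fold higher in CaPECs, when 3 counts over the group are taken as the limit that a count of 0 allows. Of the 44 genes, 22 had no count in any CaPEC library and were at least 22.0-fold to at least 424-fold higher in VSMCs. These limits cover counting error only. Such genes passed the filter on low counts only through the cell type in which they were high. The lower ends of the limits thus follow in part from the filter and from the rule of 1 normalized CPM.

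These genes were chosen for their near absence in the vena porta, so a lower number in the other vessels follows from the choice, and a limit of 3 counts also depends on depth. Of the 29 genes, 14 had at most 3 counts in the aortic VSMCs and 15 in the vena cava VSMCs, where the highest sample reached 2.6 normalized CPM. Near absence in VSMCs together with more than 1 normalized CPM in every CaPEC sample was found for 7 of the 29 in the aorta and 4 in the vena cava. Of the 44 genes, 22 had at most 3 counts in the aortic CaPECs and 14 in the vena cava CaPECs, where the highest sample reached 38.4 normalized CPM. Near absence in CaPECs together with more than 1 normalized CPM in every VSMC sample was found for 11 of the 44 in the aorta and 7 in the vena cava.

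The smallest p-value among the genes higher in CaPECs belonged to ENSCAFG00000019134. It had 2560, 2401, and 1833 normalized CPM in the CaPEC samples 1 to 3 and 20.5, 18.8, and 17.6 in the VSMC samples. The transcript was thus counted in both cell types, far apart and with little spread within each. The log2 fold change was 6.90 (standard error 0.274, 95% confidence interval 6.27 to 7.54, adjusted p = 3.46e-05 from edgeR).

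The next gene in this direction, ENSCAFG00000005112, had 65.9, 46.1, and 61.0 normalized CPM in CaPECs and 0, 0.107, and 0 in VSMCs. These are 1817 counts in the CaPEC libraries against 1 count in the VSMC libraries. Scaled to the TMM-normalized library totals this is a ratio of 1620, with an exact 95% Poisson interval of 291 to 64100 that covers counting error only (adjusted p = 6.12e-05 from edgeR). This gene was close to absent from the VSMCs of the vena porta.

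Among the genes higher in VSMCs, ENSCAFG00000003426 had the smallest p-value. It had 2243, 2320, and 1562 normalized CPM in VSMCs and 7.75, 9.30, and 7.25 in CaPECs, so that it was abundant in smooth muscle cells and low but counted in every endothelial sample. The log2 fold change was -7.98 (standard error 0.312, 95% confidence interval -8.70 to -7.26, adjusted p = 3.46e-05 from edgeR). ENSCAFG00000015209 followed with 148.4, 116.8, and 139.4 normalized CPM in VSMCs and 0.815, 1.16, and 1.61 in CaPECs. Its log2 fold change was -6.85 (standard error 0.272, 95% confidence interval -7.48 to -6.22, adjusted p = 3.46e-05 from edgeR).

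**Figure D3:**
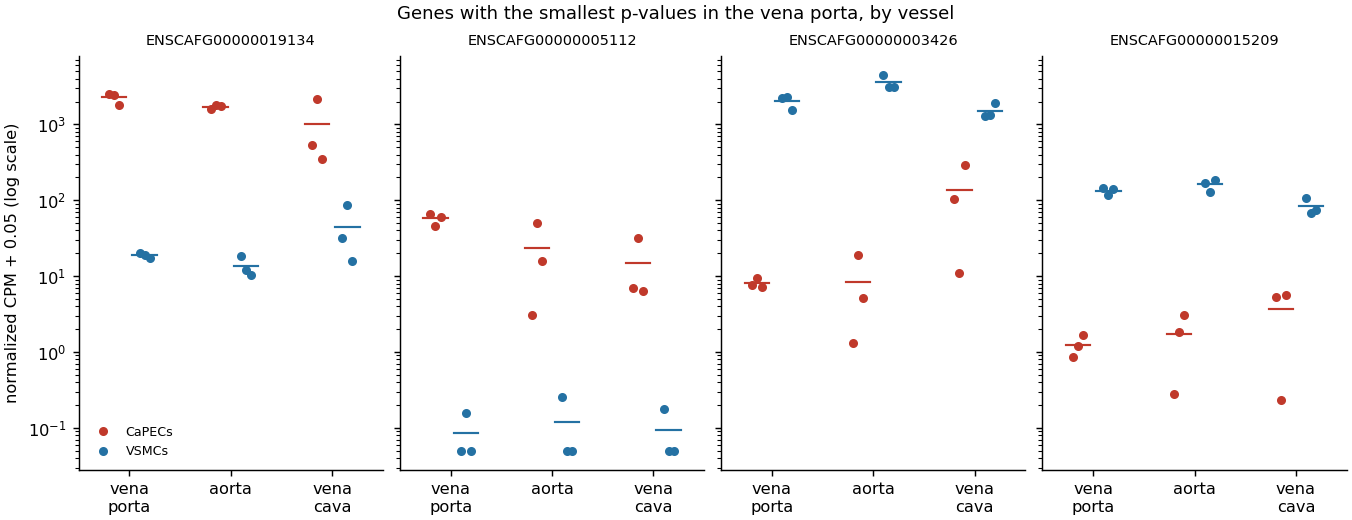
Normalized CPM (vertical axis, log scale, with 0.05 added so that values of 0 can be drawn) of the 4 genes named for the vena porta, in CaPECs and VSMCs of each vessel (horizontal axis), one point per sample and a line at the mean of 3. The genes were chosen for their small p-values and lack of overlap in the vena porta, so the tight and separate groups there follow from that choice; ENSCAFG00000003426 ranges from 11.1 to 289 in the vena cava CaPECs.

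In the other vessels these 4 genes kept their direction. ENSCAFG00000003426 was at 105.1, 11.1, and 289 normalized CPM in the vena cava CaPEC samples 1 to 3, and the log2 fold change in the vena cava was -3.48 (standard error 1.01, adjusted p = 0.112 from edgeR), which did not pass the threshold of 0.1. In the aorta it was -8.78 (standard error 0.912, adjusted p = 0.000375 from edgeR). ENSCAFG00000019134 had a log2 fold change of 6.97 in the aorta (standard error 0.282, adjusted p = 2.05e-05 from edgeR) and of 4.50 in the vena cava (standard error 0.962, adjusted p = 0.0537 from edgeR), and was called in both. ENSCAFG00000005112 and ENSCAFG00000015209 were also called in both vessels. ENSCAFG00000005112 had 26, 314, and 179 counts in the aortic CaPECs and 61, 345, and 74 in those of the vena cava, against 2, 0, and 0 counts in the VSMCs of each (adjusted p = 0.00375 and 0.0253 from edgeR). ENSCAFG00000015209 had a log2 fold change of -6.52 in the aorta (standard error 0.53, adjusted p = 0.000135 from edgeR) and of -4.52 in the vena cava (standard error 0.872, adjusted p = 0.0424 from edgeR). Since the genes were chosen for small p-values in the vena porta, their spread and size there cannot be set against those in the other vessels.

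The replicates of the vena porta varied more among CaPECs than among VSMCs. The biological coefficient of variation from edgeR was 0.301 in CaPECs and 0.242 in VSMCs, a description without a test, and it was 0.26 and 0.4 in the CaPECs of the aorta and the vena cava. The highest and the lowest of the 3 samples differed by more than 1 on the log2 scale in 2816 genes in CaPECs (24.8%) and in 2126 genes in VSMCs (18.8%). They differed by more than 2 in 832 and 473 genes. Among these 832 genes, CaPEC replicate 3 was the sample farthest from the others in 355, CaPEC replicate 2 in 306, and CaPEC replicate 1 in 171. In a principal component analysis of the 500 most variable genes, the first component held 83.8% of the variance, on which CaPECs ranged from -57.7 to -43.5 and VSMCs from 47.0 to 50.1. The second component held 7.50% and set CaPEC replicate 3 at -28.8 apart from CaPEC replicates 1 and 2 at 9.67 and 18.6, while VSMCs ranged from -4.19 to 3.48.

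Gene lists taken from the aortic samples, which played no part in the fit of the vena porta, gave a comparison of the labels between vessels that needs no gene symbols. They rest on the same cell type labels, dogs, and media, so they cannot show that a label names the right cell type. The lists were chosen after earlier results of these data were known and are described without a test. In the aorta, 309 genes were called higher in CaPECs and 310 higher in VSMCs by more than 3 on the log2 scale. The aortic CaPEC list held 5.15%, 3.16%, and 4.32% of all counts in the vena porta CaPEC samples 1 to 3 and 0.278%, 0.209%, and 0.335% in the VSMC samples. The aortic VSMC list held 8.77%, 8.96%, and 8.38% in the vena porta VSMC samples and 0.710%, 0.915%, and 1.84% in the CaPEC samples. All 6 libraries thus lay with the aortic samples of the same label, and CaPEC replicate 3 had the highest share of the VSMC list among the CaPECs. Without it, 3754 genes were called between the cell types. Whether this share plays a part in the spread of CaPEC replicate 3 was not tested. In the vena cava, CaPEC samples 1 and 3 had 2.83% and 2.12% of their counts in the aortic VSMC list, against 0.844% in CaPEC sample 2.

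Gene by gene, 230 genes of the aortic CaPEC list and 277 of the aortic VSMC list were tested in the vena porta. Of the former, 177 were also called higher in CaPECs there (77.0%, against 14.9% of all genes tested), and 3 were called higher in VSMCs. Of the latter, 230 were called higher in VSMCs (83.0%, against 15.8% of all genes tested), and 0 were called higher in CaPECs. The median log2 fold change in the vena porta was 3.20 and -3.31 for these lists. With the aortic lists taken from a log2 fold change of 1 instead, 709 of 1084 CaPEC genes (65.4%) and 800 of 1080 VSMC genes (74.1%) were called in the same direction, and 21 and 3 in the opposite one.

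The difference between the cell types was then set beside the same comparison in the aorta and the vena cava, each fitted on its own 6 samples. At an adjusted p-value below 0.1, 4368 genes were called in the aorta (38.4% of 11389) and 991 in the vena cava (8.68% of 11421), so that the vena porta lay between them. The vena cava count depended on CaPEC sample 2, without which it was 1970. Over the 10945 genes tested in all vessels, the median absolute log2 fold change was 0.434 in the vena porta, 0.474 in the aorta, and 0.324 in the vena cava. The log2 fold changes in the vena porta had a Pearson correlation across genes of 0.787 with those in the aorta and of 0.720 with those in the vena cava. Genes are not independent replicates, and the vessels share the dogs and the culture media.

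**Figure D4:**
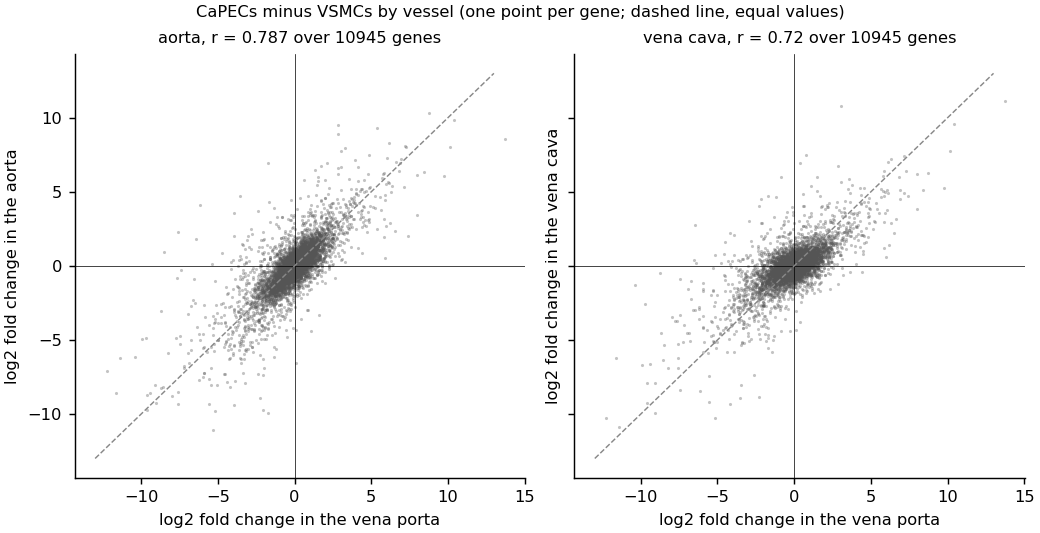
Log2 fold change between CaPECs and VSMCs (CaPECs minus VSMCs) in the aorta (left, vertical axis) and the vena cava (right, vertical axis) against that in the vena porta (horizontal axis), one point per gene over the 10945 genes tested in all vessels. The dashed line marks equal values. The Pearson correlation across genes was higher for the aorta (r = 0.787) than for the vena cava (r = 0.720), where many genes have smaller fold changes than in the vena porta.

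Of the 1601 genes called higher in CaPECs in the vena porta and tested in all vessels, 1547 had the same direction in the aorta (96.6%, against 51.7% of all genes) and 1449 in the vena cava (90.5%, against 53.1%). Called in that direction were 1147 in the aorta (71.6%, against a background of 20%) and 285 in the vena cava (17.8%, against 3.8%). Of the 1730 genes called higher in VSMCs, 1623 had the same direction in the aorta (93.8%, against 48.3%) and 1534 in the vena cava (88.7%, against 46.9%). Called in that direction were 1279 in the aorta (73.9%, against 18.4%) and 404 in the vena cava (23.4%, against 4.88%). In all vessels, 236 genes were called toward CaPECs and 353 toward VSMCs. A further 771 genes were called in the vena porta and in neither other vessel, which does not show that they differed between vessels.

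Whether the difference between the cell types was itself other in the vena porta was tested over all 18 samples and 12288 genes. Against the mean of the aorta and the vena cava, 4 genes passed an adjusted p-value below 0.05 in edgeR's quasi-likelihood test (0.0326% of the genes tested), 1 of them with a difference shifted toward CaPECs and 3 toward VSMCs, all with an adjusted p-value just under the threshold. Against the aorta alone, 29 genes passed (0.236%), 3 shifted toward CaPECs and 26 toward VSMCs. Against the vena cava alone, 5 genes passed (0.0407%), 1 and 4 in the same order. These counts depended on single libraries. Without VSMC replicate 2 of the vena porta 10 genes passed against the mean of the other vessels, and 0 passed without CaPEC replicate 1 or 2 or VSMC replicate 1 or 3, where 705 to 989 genes had an unadjusted p-value below 0.05. Without CaPEC replicate 3 the count was 3, and 0 of these were among the 4. Against the aorta, 15 genes passed without CaPEC replicate 1, 18 without CaPEC replicate 3, 19 without VSMC replicate 1, and 17 without VSMC replicate 3. Against the vena cava, 36 passed without CaPEC replicate 3, 1 without CaPEC replicate 2 or VSMC replicate 3, and 0 without CaPEC replicate 1 or VSMC replicate 1 or 2, where 1109 to 1320 genes had an unadjusted p below 0.05. Within each cell type the columns of the vessels carry the same 3 numbers, which the labels do not tie to dogs, and with the replicate number within each cell type as a block the counts were 1, 36, and 13, of which 0, 23, and 4 were shared with the fit without it. DESeq2's Wald test called 133, 178, and 193 genes in these comparisons, so that the few calls from edgeR depend on the test.

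ENSCAFG00000008310 was shifted toward CaPECs. It had 74.2, 59.6, and 59.8 normalized CPM in the CaPECs of the vena porta, against 4.005 to 17.8 in all 6 CaPEC samples of the other vessels. In VSMCs it had 85.6, 98.1, and 102.1 in the vena porta and 51.7 to 134.8 elsewhere. The vena porta CaPECs did not overlap with the other CaPECs, while the VSMCs of the vessels overlapped. This gene and those named below were chosen by smallest p-value in this test on the same samples. A lack of overlap in them thus follows in part from the choice and adds no support to the calls. The log2 fold change between the cell types was -0.57 in the vena porta (standard error 0.156), -3.25 in the aorta (standard error 0.329), and -3.58 in the vena cava (standard error 0.496). The vena porta differed from the mean of the others by 2.86 (standard error 0.459, adjusted p = 0.0483 from edgeR, and 0.0532 with the replicate block).

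ENSCAFG00000007131 was shifted toward VSMCs. It had 1.82, 1.46, and 2.07 normalized CPM in the CaPECs of the vena porta and 9.29 to 37.7 in the other 6 CaPEC samples. Again there was no overlap, which the choice of the gene favours. In the VSMCs of the vena porta it had 12.7, 10.7, and 13.2. The VSMCs of the vena cava had 10.01, 15.44, and 19.65, and those of the aorta had 47.6, 40.9, and 43.3. The vena porta VSMCs thus overlapped with those of the vena cava and lay below all aortic VSMCs. The log2 fold change between the cell types was -2.77 in the vena porta (standard error 0.295), -0.30 in the aorta (standard error 0.147), and 0.38 in the vena cava (standard error 0.455). The vena porta differed from the mean of the others by -2.79 (standard error 0.422, adjusted p = 0.0483 from edgeR, and 0.0707 with the replicate block).

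ENSCAFG00000019473 was shifted toward VSMCs in the test, and here the aorta stood apart. It had 0.540, 0.439, and 0.344 normalized CPM in the CaPECs of the vena porta (14 counts in all), 0.275 to 1.02 in those of the vena cava, and 30.5 to 38.1 in those of the aorta. The VSMCs had 6.31 to 8.25 in the vena porta and 3.76 to 10.9 in the other vessels. The log2 fold change was -3.93 in the vena porta (standard error 0.425), -3.11 in the vena cava (standard error 0.630), and 2.02 in the aorta (standard error 0.238). The vena porta and the vena cava thus had the opposite sign to the aorta in this gene, and the difference of the vena porta from the mean of the others was -3.37 (standard error 0.517, adjusted p = 0.0483 from edgeR, and 0.0532 with the replicate block).

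**Figure D5:**
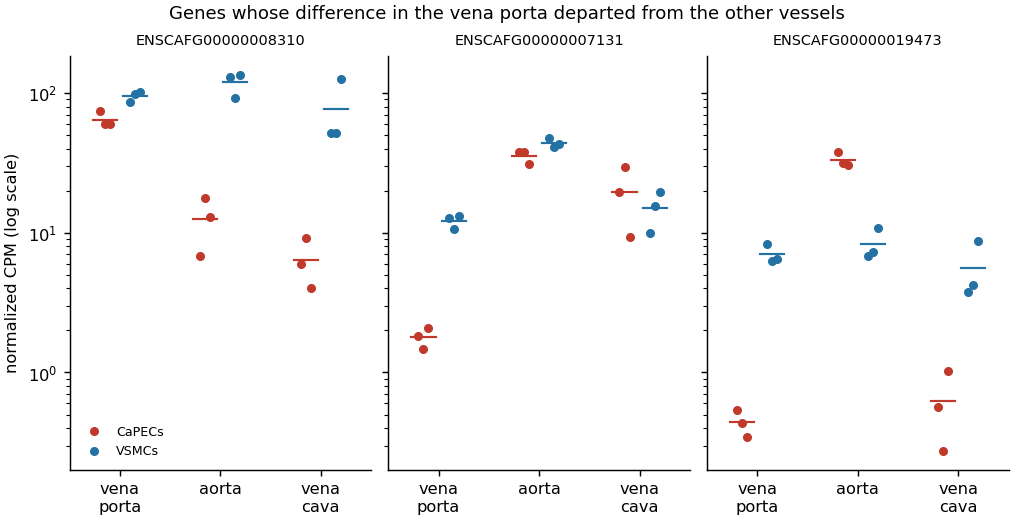
Normalized CPM (vertical axis, log scale) of 3 of the 4 genes whose difference between the cell types in the vena porta departed from the mean of the other vessels, in CaPECs and VSMCs of each vessel (horizontal axis), one point per sample and a line at the mean of 3. The CaPECs of the vena porta stand apart from the other CaPECs in ENSCAFG00000008310 (59.6 to 74.2) and ENSCAFG00000007131 (1.46 to 2.07), and the CaPECs of the aorta stand apart in ENSCAFG00000019473 (30.5 to 38.1). The genes were chosen by their p-values in this comparison on the same samples, so the separate groups follow in part from that choice.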

How the data were processed

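Per the labels and the study's methods, the authors aligned single-end reads to CanFam3.1 with STAR 2.4.2a and counted them per gene with HTSeq 0.6.1p1 in union mode. The annotation release and strand setting are not given in the sources used here. They deposited raw read counts per gene, which were used as deposited. Groups and replicate numbers were taken from the sample titles, and columns from the descriptions. The methods name 3 dogs, but the column names number CaPECs and VSMCs differently, so the cell types were not paired, and p-values measure the spread between these cultures.

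Tests used edgeR 4.0.16 (glmQLFit, glmQLFTest, TMM, filterByExpr with a minimum count of 10) in R 4.3.3 with Benjamini-Hochberg adjustment over all genes tested. The threshold was an adjusted p-value of 0.1 between cell types and 0.05 between vessels. Alternatives were DESeq2 1.42.0, limma 3.58.1, other scalings, filters, and thresholds, thinned libraries, the replicate block, and left-out samples. Standard errors were derived from the F statistic. Log2 CPM used a prior count of 2. For each comparison, up to 2 called genes per direction were named by smallest p-value (in the vena porta comparison, only genes whose samples did not overlap). Members, lists, and thresholds were chosen with earlier results of these data known. The gene lists by symbol were not run, as no identifier had a symbol.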

Additional observations from a re-analysis of the deposited data

Results flagged for a closer look

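The difference between CaPECs and VSMCs differed between the vena porta and the mean of the other vessels in 4 genes, between the vena porta and the aorta in 29 genes, and between the vena porta and the vena cava in 5 genes, each tested as an interaction with edgeR at a threshold of 0.05 on the adjusted p-value. For 3 of the 4 genes the values were given above, and the log2 difference was 2.86 for ENSCAFG00000008310, -2.79 for ENSCAFG00000007131, and -3.37 for ENSCAFG00000019473, and for each the adjusted p from edgeR was 0.0483. Groups of 3 samples are too small for a test of single samples that lie far from the others, and none was made.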

How the results depend on the processing

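The count of genes between vena porta CaPECs and VSMCs was within 1.5 times the reported 3477 under 16 of 17 alternatives, and the count past 1 on the log2 scale under all 17. With each sample left out in turn it ranged from 2269 to 3754 genes. It was 2467 at an adjusted p-value below 0.05, 3630 with DESeq2, of which 3280 were shared, and 3248 in libraries thinned to the smallest total. Other scalings moved the median over all genes by less than 0.1. These scalings also centre the log2 fold changes, so they do not test the even split. The 4 genes named in this comparison kept their direction and call under all 15 alternatives run for them. Same-numbered samples had correlations of their deviations across genes of 0.102, 0.192, and 0.092, and each sample correlated best with its own number, a hint from the data and not from the design. With the replicate block 3473 genes were called, 3150 of them shared.

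The comparisons between vessels were less stable. Against the mean of the other vessels, where 4 genes were reported, 28 passed at an adjusted p-value below 0.1, 133 with DESeq2, 1 with the replicate block, 1 without vena cava CaPEC replicates 1 and 3, and 0 with DESeq2's size factors in edgeR or with limma and a variance per cell type, with 926 and 814 genes under an unadjusted p of 0.05. Samples left out in turn gave 0 to 10 genes. Against the aorta (29 genes) it was 59 at 0.1, 178 with DESeq2, 18 with limma, and 15 to 27 with samples left out. Against the vena cava (5 genes) it was 23 at 0.1, 193 with DESeq2, 8 without a filter, 13 with the replicate block, 2 with limma, 2 without vena cava CaPEC replicates 1 and 3, and 0 to 36 with samples left out. In the vena cava itself, where 991 genes were reported, DESeq2 called 1749, and 1970 were called without CaPEC replicate 2. With the replicate block 612 were called, of which 534 were among the 991. Leaving out vena cava samples was chosen after seeing the data. The 3 named genes lost the call in 27 of 36 alternative fits, while the difference stayed between 2.6 and 2.91 for ENSCAFG00000008310, -3.09 and -2.69 for ENSCAFG00000007131, and -3.58 and -2.78 for ENSCAFG00000019473, and the cause of the lost calls was not tested. Of the 487 differences beyond 1 that were not called, 383 were in genes below 10 normalized CPM.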

Other observations

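Some of the genes called in the vena porta went in the opposite direction in other vessels. Of the genes called higher in CaPECs in the vena porta, 6 were called higher in VSMCs in the aorta, and of those called higher in VSMCs, 32 were called higher in CaPECs in the aorta. These are 6 of 1601 and 32 of 1730 genes, below the 18.4% and 20% of all genes tested in the aorta that were called in those directions. In the vena cava the numbers were 1 and 0, where 4.88% and 3.8% of all genes were called in those directions. In 50 of the 3331 genes called in the vena porta and tested in all vessels, the log2 fold change had the opposite sign in both other vessels (1.5%, against 9.26% of the 10945 genes tested in all vessels). These counts are descriptions, and the difference between vessels was tested only as given above.

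The share of each library's counts held by the called genes was close among replicates. The 1690 genes called higher in CaPECs held 24.5% to 25.2% of the counts in vena porta CaPECs and 6.62% to 7.80% in vena porta VSMCs. The 1787 genes called higher in VSMCs held 16.0% to 18.9% and 42.2% to 45.9%. These genes were chosen on the same samples. In the aortic CaPECs, which played no part in the choice, the genes called higher in CaPECs held 22.7%, 24.9%, and 18.3% in samples 1 to 3, and the genes called higher in VSMCs held 21.1%, 20.3%, and 21.1%. In the vena cava CaPECs, which played no part either, the genes called higher in CaPECs held 14.7%, 24.2%, and 12.2% in samples 1 to 3, and the genes called higher in VSMCs held 27.6%, 18.2%, and 28.8%. In the VSMCs of the same vessels, the genes called higher in CaPECs held 6.20% to 7.17% in the aorta and 8.26%, 8.75%, and 13.7% in the vena cava samples 1 to 3, so that in the vena cava VSMC sample 3 lay above CaPEC sample 3 and the cell types overlapped. The genes called higher in VSMCs held 45.1% to 47.9% in the aortic VSMCs and 37.5% to 40.7% in the vena cava VSMCs, above all CaPEC samples of these vessels.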
